A study of Mus musculus with 8 samples.

Results

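The Wnt pathway genes of the renal cortex were described in 4 aged and 4 young male C57BL6 mice. A gene was a member if its symbol marked it as a Wnt ligand, a frizzled receptor (Fzd), a secreted inhibitor of the Sfrp or Dkk families or Wif1, an R-spondin (Rspo1 to Rspo4), or if it was Lrp5, Lrp6, Axin1, Axin2, Ctnnb1, Lef1, Tcf7, Tcf7l1, Tcf7l2, Znrf3 or Rnf43. This rule, which used no measured value, took 54 of the 22609 genes in the count tables. Changes are given for the 35 members with at least 10 counts in 4 or more libraries, and 34 of them were among the 13944 genes that passed the low-count filter of edgeR and were tested. None of the 34 passed through 1 age group only.

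Ribosome-depleted total RNA of kidney cortex was sequenced as stranded libraries, one per mouse, from untreated animals. The labels give an age of 30 months for the aged and 5 months for the young mice. The study's methods give a higher mean age for the aged group. Read pairs counted on genes ranged from 14820804 to 19018543 in aged and from 15152597 to 19821429 in young libraries. Values are CPM, the counts of a gene scaled to the library total after TMM normalization, and 3 counts, taken as the detection floor, corresponded to 0.147 to 0.204 CPM. A gene counted as called when edgeR's quasi-likelihood test gave it an adjusted p (Benjamini-Hochberg) below 0.05 and its fold change exceeded 1.5. All adjusted p-values below come from that test over all 13944 genes.

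Wnt proteins are secreted lipid-modified ligands that bind a frizzled receptor together with Lrp5 or Lrp6. In the canonical branch this stops the destruction complex, built on Axin and Apc, from degrading beta-catenin, which then acts with Tcf and Lef factors on target genes. R-spondins, through Lgr receptors, protect frizzled receptors from the ubiquitin ligases Znrf3 and Rnf43, while Sfrp proteins and Wif1 bind the ligands and Dkk1, Dkk2 and Dkk4 act on Lrp5 and Lrp6. In the kidney Wnt9b and Wnt4 drive nephron formation, Wnt7b is needed for the medulla, and the pathway is reactivated in injury and fibrosis.

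The libraries were checked against cell type markers. The 6 markers of proximal tubule segments S1 and S2, the main cells of the cortex, summed to between 18750 and 22780 CPM in 7 libraries and to 8898 CPM in aged mouse 1. This library also held the most signal of other tissue. The sum of the inner medulla markers Slc14a2, Cryab and Aqp4 was 527 CPM in aged mouse 1, 20.6 to 76.7 CPM in the other aged mice and 33.1 to 166 CPM in the young mice, of which young mouse 1 was highest. Slc14a2, a urea transporter of the inner medullary collecting duct and thin limb, stood at 89.2 CPM in aged mouse 1 and 26.7 CPM in young mouse 1, and at 0.327 CPM or less in the other 6 libraries, with no count in young mouse 3. The 5 urothelium markers summed to 64.8 CPM in aged mouse 1 and to at most 5.92 CPM in any other mouse. The 5 markers of injured tubule summed to 179.7 CPM in aged mouse 1 and to 77.2 to 91.7 CPM in the other 7 libraries. Among them Lcn2, Vcam1, Krt8 and Krt18 were highest in aged mouse 1, while Havcr1, at 1.13 CPM, was the lowest of the aged mice. Aged mouse 1 lay at -71.5 on the first principal component, which held 48.2% of the variance, and the other 7 lay between -16.3 and 26.2. Results that rest on this library are given with and without it. Other marker lists were compared between the groups. The 6 lymphocyte and plasma cell markers, of which 4 were tested and Igj was called higher, summed to 34.7 to 99.4 CPM in aged and 7.27 to 16.4 CPM in young mice. The 3 markers of the distal convoluted tubule, none of them called, summed to 1223 to 1412 CPM in aged and 678.6 to 1220 CPM in young mice. The sums were narrowly apart, and the log2 fold changes of Slc12a3, Trpm6 and Pvalb were 0.47, 0.42 and -1.03. The 4 markers of proximal tubule segment S3, none of them called, summed to 277 to 1224 CPM in aged and 1161 to 1712 CPM in young mice. These sums overlapped, and the median log2 fold change of the S3 markers was -1.95. Of the 6 macrophage markers Csf1r was called lower, while the log2 fold changes of Cd68, Emr1, C1qa, C1qb and C1qc, none called, ranged from 0.13 to 0.71. The macrophage sums overlapped, at 70.7 to 139.5 CPM in aged and 93.4 to 138.7 CPM in young mice. The part of these cells in the levels of the Wnt pathway genes was not tested.

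No member was called changed with age. Of the 34 members tested, 0 passed both thresholds, beside 2.06% of all genes tested, and 0 had an adjusted p below 0.05, beside 2.95% of all genes. At an unadjusted p below 0.05 there were 3 members (8.82%), namely Sfrp5, Rspo1 and Axin1, where 25.5% of all genes passed. DESeq2 and limma-voom each called 1 member, which was Sfrp5. The aged and young groups did not overlap in 3 of the members tested (8.82%), with Sfrp5 and Rspo1 higher and Ctnnb1 lower in every aged mouse, and 18.9% of all genes showed such separation. Both shares of members lay below those of all genes.

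Most fold changes of the members were small and positive. The log2 fold change, aged over young, was above 0 in 27 members and below 0 in 7. This is 79.4% above 0, against 54.1% of all genes, and the median was 0.14 against 0.03. The excess rested on aged mouse 1, since without it 18 members were above and 16 below 0, with a median of 0.03. With young mouse 1 left out as well, the 2 libraries richest in inner medulla markers were gone and the split was 17 to 17. With limma-voom, which gives outlying libraries less weight, 20 members were above and 14 below 0. In a bulk sample a smaller number of cells of one type and less RNA per cell cannot be told apart.

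**Figure D1:**
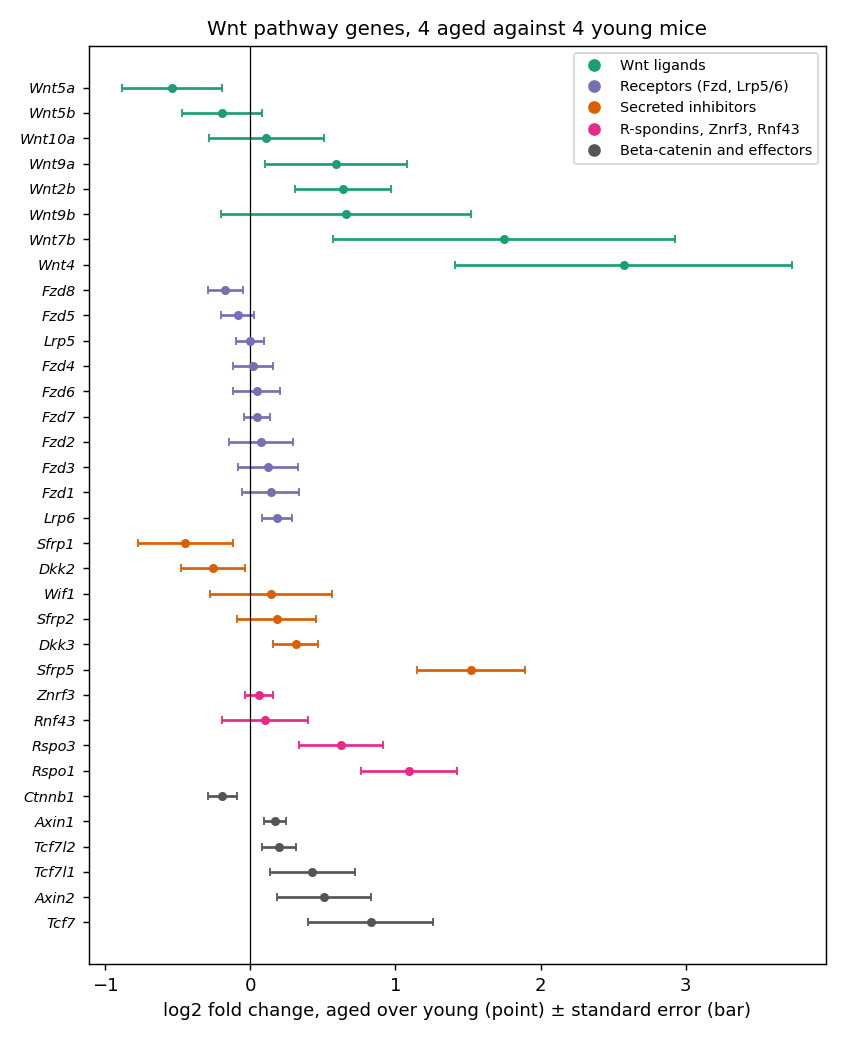
Log2 fold change of aged over young mice (points, x axis) with its standard error (bars) for the 34 tested Wnt pathway genes, grouped by role and sorted within each role. The receptors lie between -0.17 and 0.19, Sfrp5 stands at 1.52 with a bar of 0.37, and Wnt4 at 2.57 and Wnt7b at 1.75 have the widest bars.

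Levels were compared between genes as CPM per kilobase of exon. The order was led by Ctnnb1, which encodes beta-catenin, with 102 CPM per kilobase, followed by the co-receptor Lrp6 with 50.4, the inhibitor Sfrp1 with 36.2, and the receptors Fzd4 with 32.8 and Fzd1 with 22.8. Lrp5 stood at 16.5 and Axin1 at 12.8 on the same scale. The ranges of the 8 libraries of neighbouring genes in this order were apart only between Ctnnb1 and Lrp6, Fzd1 and Lrp5, Axin1 and Fzd7, and Wnt10a and Wnt16, and each other pair of neighbours overlapped. Ligands were low, and the highest of them by mean, Wnt5b, had 2.16 CPM per kilobase at rank 18 of 35.

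**Figure D2:**
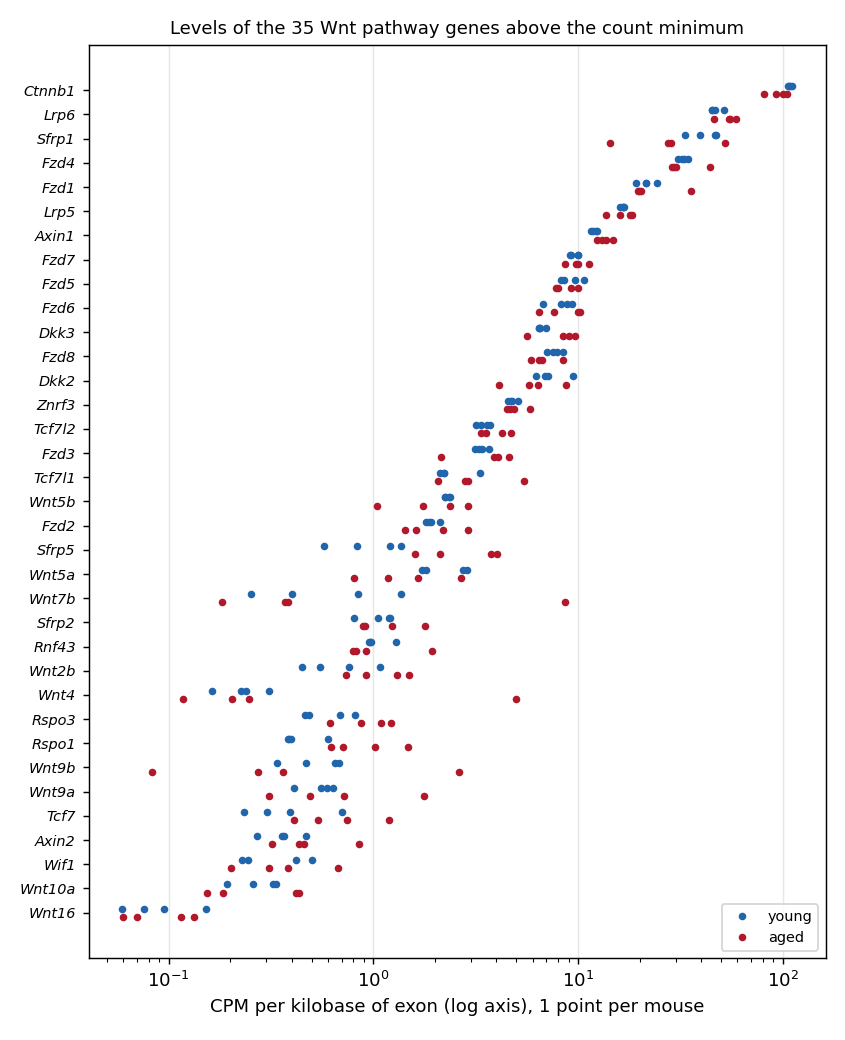
Levels of the 35 Wnt pathway genes above the count minimum in CPM per kilobase of exon on a log axis, with 1 point per mouse, young in blue and aged in red, ordered by the mean of the groups. Beta-catenin, Lrp6, Sfrp1 and Fzd4 lead, the ligands fill the lower part, and single aged points of Wnt7b, Wnt4 and Wnt9b lie far to the right of the rest.

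Of the 19 Wnt ligands, 9 reached 10 counts in 4 libraries. Wnt5b, a ligand known mainly from non-canonical signaling, stood at 2.75, 7.61, 6.25 and 4.58 CPM in aged mice 1 to 4 and at 5.86, 5.87, 6.19 and 6.20 CPM in young mice 1 to 4. The young mice were nearly level and the aged mice lay on both sides of them, so that the log2 fold change was -0.19 (SE 0.28, adjusted p = 0.684), and it was 0.02 without aged mouse 1. Wnt2b, a canonical ligand, stood at 3.29, 4.68, 5.34 and 2.62 CPM in aged and at 1.60, 3.86, 1.97 and 2.72 CPM in young mice. These groups overlapped, with a log2 fold change of 0.64 (SE 0.33, adjusted p = 0.248). Wnt5a is a ligand of planar cell polarity and was named after its values were seen. It ranged from 6.31 to 20.9 CPM in aged and from 13.5 to 22.4 CPM in young mice, with a log2 fold change of -0.54 (SE 0.35, adjusted p = 0.347). Without aged mouse 1 it was -0.93 (adjusted p = 0.0768) and without aged mouse 3 it was -0.32.

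The largest fold changes among the members came from 1 mouse. Wnt4, a ligand of the mesenchymal to epithelial transition on the plus strand of chromosome 4 of mm9 (136833404 to 136855641), stood at 21.0 CPM in aged mouse 1 and at 1.04, 0.855 and 0.490 CPM in aged mice 2 to 4. The young mice stood at 1.29, 1.00, 0.680 and 0.945 CPM, so that the other 3 aged mice lay within or below the range of the young. The log2 fold change was 2.57 (SE 1.16, adjusted p = 0.202) with all libraries and -0.32 without aged mouse 1.

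Wnt7b and Wnt9b, named after their values were seen, had the same shape. Wnt7b stood at 38.0, 1.69, 0.802 and 1.63 CPM in aged and at 6.04, 1.11, 1.77 and 3.72 CPM in young mice. Its log2 fold change of 1.75 (SE 1.18, adjusted p = 0.367) became -1.20 without aged mouse 1. Wnt9b, the ureteric bud ligand upstream of Wnt4 in development, stood at 11.9, 1.24, 0.374 and 1.63 CPM in aged and at 3.08, 1.53, 2.11 and 2.95 CPM in young mice, and its log2 fold change moved from 0.66 (SE 0.86, adjusted p = 0.651) to -1.16. Neither gene passed the threshold without that mouse, with an adjusted p of 0.223 for Wnt7b and 0.146 for Wnt9b.

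Wnt4, Wnt7b and Wnt9b together made up 65.1% of the CPM of all ligands in aged mouse 1. They made up 8.24% to 16.6% in the other aged mice and 11.7% to 23.8% in the young mice, where young mouse 1 was again highest. The mice with the most Wnt7b were aged mouse 1, young mouse 1 and young mouse 4, which were also the 3 highest for Wnt9b and for the sum of the inner medulla markers. For Wnt4, aged mouse 1 and young mouse 1 were highest, but aged mouse 2, at 1.04 CPM, lay above young mouse 4, at 0.945 CPM. The part of the inner medulla, urothelium and injured tubule markers in the levels of the 3 ligands was not tested. Wnt9a, also named after its values were seen, was 3.49 times as high in aged mouse 1 as in the mean of the other aged mice, against 26.4 times for Wnt4, 27.6 times for Wnt7b and 10.99 times for Wnt9b.

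**Figure D3:**
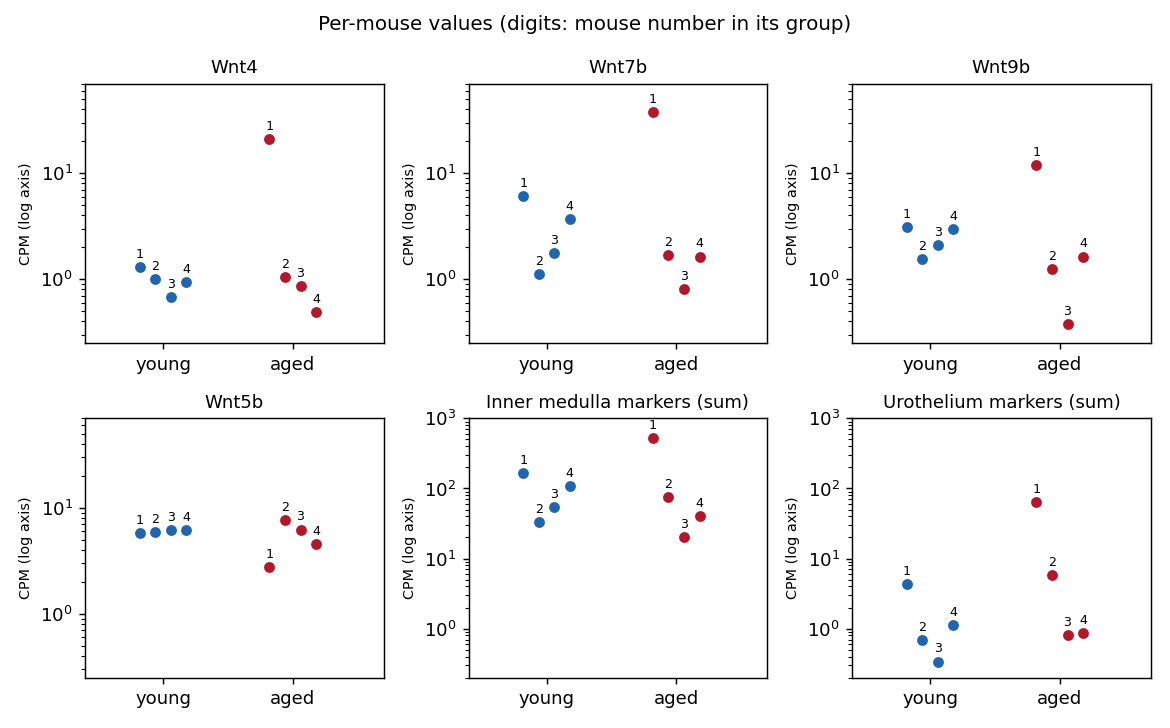
CPM on log axes for Wnt4, Wnt7b, Wnt9b and Wnt5b and for the summed inner medulla and urothelium markers in each of 4 young (blue) and 4 aged (red) mice, with the mouse number beside each point. Aged mouse 1 is highest for Wnt4, Wnt7b, Wnt9b and both marker sums and lowest for Wnt5b.

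The other 10 ligands were low. Wnt1 and Wnt8a had 0 counts in every library, which allows a level up to the floor, and Wnt2, Wnt3, Wnt3a, Wnt6, Wnt7a, Wnt8b, Wnt10b and Wnt11 reached 10 counts in fewer than 4 libraries. Of these, Wnt11 with 23 counts, Wnt8b with 15 and Wnt10b with 13 were highest in aged mouse 1, at 1.13, 0.737 and 0.638 CPM, and Wnt2 was highest in young mouse 1, with 11 counts. Wnt16, with levels of 0.374 to 0.835 CPM in aged and 0.370 to 0.952 CPM in young mice, met the count rule but not the filter of edgeR, and under a filter of 10 counts in 4 libraries its log2 fold change was -0.04 (SE 0.39, adjusted p = 0.960). Wnt6 was higher in every aged than in every young mouse, but with 31 counts over all 8 libraries and levels of 0.163 to 0.428 CPM in aged and 0.068 to 0.159 CPM in young mice it stayed near the floor and was not tested.

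The receptors were the steadiest members. All 10 tested, Lrp5, Lrp6 and 8 frizzled receptors, had log2 fold changes between -0.17 and 0.19, and none had groups that did not overlap. Lrp6 stood at 581, 541, 452 and 536 CPM in aged and at 459, 442, 442 and 509 CPM in young mice, with a log2 fold change of 0.19 (SE 0.10, adjusted p = 0.279). Aged mouse 3 lay within the young range and the other 3 aged mice above it. Fzd8 stood at 22.3, 28.4, 21.6 and 19.8 CPM in aged and at 28.2, 26.4, 23.5 and 25.3 CPM in young mice, with a log2 fold change of -0.17 (SE 0.12, adjusted p = 0.392). Fzd10 had no counts and Fzd9 had 31 counts in all.

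Among the secreted inhibitors Sfrp5 had the smallest p of all members. Sfrp5, which binds Wnt ligands and is known as a product of fat tissue, is a minus-strand gene of chromosome 19 (mm9, 42272461 to 42276742). It stood at 3.04, 7.61, 7.16 and 4.03 CPM in aged mice 1 to 4 and at 2.59, 1.59, 1.09 and 2.30 CPM in young mice 1 to 4. All aged mice lay above all young mice, with aged mouse 1 closest to them, and the mean of the aged group was 5.46 ± 2.27 CPM (SD, n = 4), that of the young group 1.89 ± 0.682 CPM (SD, n = 4). The log2 fold change was 1.52 (SE 0.37, adjusted p = 0.0608), which missed the threshold, and over the alternatives it stayed between 1.32 and 1.90 while the adjusted p ran from 0.00281 with DESeq2 to 0.151 without young mouse 2. Without aged mouse 1 the adjusted p was 0.0270, without aged mouse 4 it was 0.0436, and with scaling to library size only it was 0.0425. The adipocyte markers Adipoq, Plin1 and Cidec summed to 116, 24.6, 3.63 and 16.0 CPM in aged mice 1 to 4 and to between 0.544 and 10.6 CPM in young mice. Aged mouse 1 had the highest sum and aged mouse 3 the lowest sum of the aged mice. The part of fat tissue in the level of Sfrp5 was not tested.

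The other inhibitors showed no separation. Sfrp1, the most abundant of them per kilobase, stood at 63.0, 229, 120 and 124 CPM in aged and at 204, 207, 173 and 146 CPM in young mice. Aged mouse 2 was above and the other aged mice below every young mouse, and the log2 fold change was -0.45 (SE 0.33, adjusted p = 0.404). Leaving out aged mouse 2 gave -0.83 (adjusted p = 0.0996), leaving out aged mouse 1 gave -0.21, and leaving out aged mouse 1 and young mouse 1 together gave -0.15. Dkk3, a Dkk family member that does not act on Lrp5 or Lrp6 in the usual way, stood at 32.4, 30.4, 28.5 and 19.0 CPM in aged and at 21.7, 21.9, 21.6 and 23.4 CPM in young mice. Aged mice 1 to 3 lay above the young range and aged mouse 4 below it, with a log2 fold change of 0.31 (SE 0.15, adjusted p = 0.233), and without aged mouse 4 it was 0.46 with an adjusted p of 0.0217, still under the fold threshold. Dkk2, Sfrp2 and Wif1 had log2 fold changes between -0.26 and 0.18, while Dkk4 had no counts and Dkk1, Dkkl1 and Sfrp4 were too low to report.

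Rspo1 was the other tested member higher in every aged mouse. This R-spondin, on the plus strand of chromosome 4 of mm9 (124663674 to 124686343), stood at 1.38, 2.86, 1.98 and 1.20 CPM in aged and at 0.740, 1.16, 0.748 and 0.768 CPM in young mice. The gap between aged mouse 4 and young mouse 2 was narrow, at 22 counts in each of these libraries. The log2 fold change was 1.09 (SE 0.33, adjusted p = 0.0946), with adjusted p-values of 0.0535 to 0.221 over the alternatives, so that it passed only where the limit was raised to 0.1. Rspo3 stood at 2.60, 2.93, 2.08 and 1.47 CPM in aged and at 1.11, 1.64, 1.16 and 1.95 CPM in young mice, which overlapped, with a log2 fold change of 0.62 (SE 0.29, adjusted p = 0.212). Rspo2 and Rspo4 had no counts. Znrf3, one of the ligases that R-spondins oppose, stood at 46.3, 38.6, 36.6 and 35.6 CPM in aged and at 36.1, 40.1, 37.2 and 37.4 CPM in young mice, and its log2 fold change of 0.06 (SE 0.10, adjusted p = 0.722) became -0.03 without aged mouse 1. Rnf43 had a log2 fold change of 0.10 (SE 0.30, adjusted p = 0.846).

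Ctnnb1 was the single tested member lower in every aged mouse. It lies on the plus strand of chromosome 9 of mm9 (120838334 to 120869625) and stood at 414, 515, 537 and 471 CPM in aged and at 556, 541, 567 and 548 CPM in young mice. Aged mouse 3 came close to young mouse 2, and the mean of the aged group was 484 ± 54.1 CPM (SD, n = 4), that of the young group 553 ± 11.1 CPM (SD, n = 4). The log2 fold change was -0.19 (SE 0.10, adjusted p = 0.256) and kept its sign in every alternative, between -0.25 and -0.08. Axin1, the scaffold of the destruction complex, stood at 52.6, 47.4, 56.8 and 50.5 CPM in aged and at 44.3, 45.2, 47.6 and 46.8 CPM in young mice. Aged mouse 2 alone fell within the young range, and the log2 fold change was 0.17 (SE 0.08, adjusted p = 0.194). The Tcf factors Tcf7, Tcf7l1 and Tcf7l2, which bind DNA with beta-catenin, had log2 fold changes of 0.83 (SE 0.43), 0.43 (SE 0.29) and 0.20 (SE 0.12), with adjusted p-values from 0.256 to 0.375. That of Tcf7 was 0.46 without aged mouse 1. Lef1 was under the count minimum.

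With all 4 mice in each group, the aged mice were the more variable. The coefficient of variation of CPM was larger in aged than in young mice in 31 of the 34 members (91.2%), and in 83.2% of all genes tested. The share was not computed without aged mouse 1. Wnt4, Wnt7b and Wnt9b, in which that mouse stood out, had aged coefficients of 173%, 174% and 143%. Aged mouse 1 was the highest of the aged mice in 15 of the 35 reportable members and the lowest in 8, whereas aged mouse 4 was the lowest in 17.

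Among other genes of the pathway, from a list of 62 genes that are no members, 58 were tested, and 3 rose and 1 fell with age, where 2.06% of all genes were called. The genes that rose were Gpc3, Lgr4 and Dvl2, and the gene that fell was Frzb, and 1 more, Vangl1, had an adjusted p below 0.05 with a fold under 1.5. At an unadjusted p below 0.05 there were 17 of the 58 (29.3%), and in 13 (22.4%) the groups did not overlap, against 25.5% and 18.9% of all genes. The log2 fold change was above 0 in 29 and below 0 in 29. The 4 calls depended on which mice were included, since 0 remained without young mouse 1, 3 or 4, or without aged mouse 1 and young mouse 1 together. All genes called fell as well, from 287 to 8, 14 and 12 without young mouse 1, 3 or 4. They fell to 51 without aged mouse 1 and young mouse 1 together, to 119 or 115 without aged mouse 2 or 3, and to 35 without young mouse 2. Gpc3 alone was called without aged mouse 2 or young mouse 2, Dvl2 was lost without aged mouse 3, and Dvl2 was lost but Prickle1 and Vangl1 gained without aged mouse 4. All 4 calls held with DESeq2, limma-voom, the robust fit, each scaling and each low-count filter, while a fit with the replicate number as a block kept Gpc3 and Frzb and lost Lgr4 and Dvl2.

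At the cell surface, Gpc3, a glypican that binds Wnt ligands and frizzled receptors, stood at 71.9, 78.9, 99.4 and 64.1 CPM in aged and at 24.7, 41.0, 22.1 and 19.8 CPM in young mice. The lowest aged mouse was well above the highest young mouse, and the log2 fold change was 1.54 (SE 0.24, adjusted p = 0.0251, 1.38e-07 to 0.102 over the alternatives). Lgr4, a receptor for R-spondins, stood at 596, 712, 443 and 506 CPM in aged and at 352, 363, 340.4 and 342 CPM in young mice. The young mice were nearly level, and the log2 fold change was 0.69 (SE 0.14, adjusted p = 0.0427, 3.13e-04 to 0.132 over the alternatives). Lgr5 and Lgr6, the related receptors, did not reach the threshold or were not tested, with levels of at most 1.23 CPM in any mouse.

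Dvl2, a Dishevelled protein that relays the signal from frizzled receptors, stood at 13.8, 15.5, 18.7 and 18.03 CPM in aged and at 10.97, 11.3, 10.9 and 10.1 CPM in young mice. Its log2 fold change was 0.61 (SE 0.12, adjusted p = 0.0390, 9.77e-04 to 0.130 over the alternatives), a fold of 1.53 and so just above the threshold. Its relatives Dvl1 and Dvl3 had log2 fold changes of -0.04 (SE 0.08) and 0.08 (SE 0.09), and neither passed the test. Frzb, a secreted inhibitor also called Sfrp3 that the symbol rule did not take, stood at 10.02, 12.5, 5.72 and 16.1 CPM in aged and at 32.5, 29.7, 22.8 and 28.5 CPM in young mice. Every aged mouse lay below every young mouse, and the log2 fold change was -1.36 (SE 0.27, adjusted p = 0.0401, 1.05e-04 to 0.124 over the alternatives). Vangl1, a membrane protein of planar cell polarity, stood at 28.0, 28.9, 25.1 and 33.4 CPM in aged and at 41.1, 43.8, 37.5 and 42.0 CPM in young mice. Its log2 fold change was -0.51 (SE 0.10, adjusted p = 0.0390, 5.77e-04 to 0.125 over the alternatives).

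**Figure D4:**
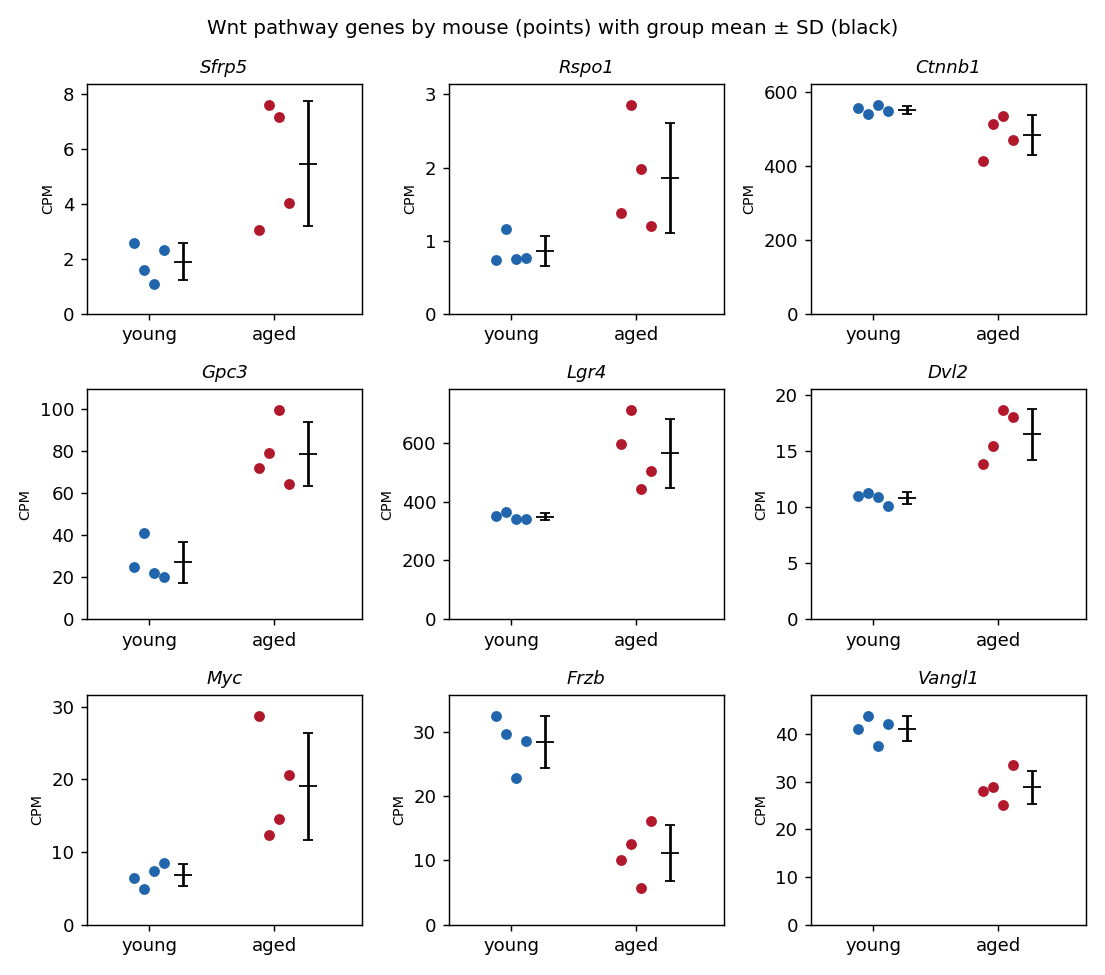
CPM of 9 Wnt pathway genes in each young (blue) and aged (red) mouse, with the group mean and SD (n = 4) in black and each y axis from 0. The 2 groups are apart in every panel, with Sfrp5, Rspo1, Gpc3, Lgr4, Dvl2 and Myc higher and Ctnnb1, Frzb and Vangl1 lower in aged mice, while Sfrp5, Rspo1 and Ctnnb1 did not pass the test.

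Among the target genes, a list of 21 genes that the canonical pathway is known to induce, some of them members, 16 were tested and 1 rose, where 2.06% of all genes were called. An unadjusted p below 0.05 was reached by 4 of the 16, against 25.5% of all genes, and the groups were apart in 6.25%, against 18.9%. This was Myc, a growth regulator with many other inputs, which stood at 28.8, 12.3, 14.5 and 20.6 CPM in aged and at 6.41, 4.97, 7.34 and 8.51 CPM in young mice. All aged mice were above all young mice, with a log2 fold change of 1.49 (SE 0.28, adjusted p = 0.0385, 4.02e-05 to 0.115 over the alternatives). The call was lost without aged mouse 3 and without any 1 young mouse, and without aged mouse 1 and young mouse 1 together. In these fits all genes called fell from 287 to 115, to between 8 and 35, and to 51. Axin2, the most widely used readout of canonical signaling and named after its values were seen, stood at 4.67, 2.54, 1.76 and 2.40 CPM in aged and at 1.97, 1.48, 2.58 and 2.01 CPM in young mice. The groups overlapped and aged mouse 1 was highest, with a log2 fold change of 0.51 (SE 0.32, adjusted p = 0.343) that became 0.15 (adjusted p = 0.727) without that mouse. Sp5, another target and named after its values were seen, had a log2 fold change of -0.35 (SE 0.12, adjusted p = 0.123). Beside Myc and Sp5, an unadjusted p below 0.05 was reached by Cd44, at 0.46 (SE 0.17, adjusted p = 0.149), and Lgr5, at 1.24 (SE 0.52, adjusted p = 0.179). Among the 16 targets tested, 11 log2 fold changes were above 0 and 5 below 0.

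The promoters were searched for the core of the element that Tcf and Lef factors bind, since several targets are thought to carry it. The letters searched were CTTTGAT and CTTTGAA on both strands of the 250 bases before the start of each gene in RefSeq (GRCm38.p6). Of the 36 members with a promoter sequence 3 held a match (8.33%), namely Dkk1, Wnt5b and Wnt11, as did 4 of 12 target genes (33.3%) and 2333 of all 27025 genes (8.63%). The windows below show the match in capitals for the most abundant ligand per kilobase and 1 further ligand, and for Sp5 and Dkk1 among the targets. Each is given 5′ to 3′ on the strand of its gene, so that the match reads ATCAAAG where it lies on the other strand.
Wnt5b, minus strand, chr6:119449440-119449469: gagtaagtctctCTTTGATctgctccctgt
Wnt11, plus strand, chr7:98835049-98835078: tgacgtgggcggATCAAAGcgacggtccgc
Sp5, plus strand, chr2:70474807-70474836: cggcaaggccccCTTTGATcaggaaaatcc
Dkk1, minus strand, chr19:30549596-30549625: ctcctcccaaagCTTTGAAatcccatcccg
Of these 4 genes Wnt5b and Sp5 were tested, and neither passed, while Wnt11 and Dkk1 were under the count minimum.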

How the data were processed

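Kidney cortex RNA of 8 mice was measured, and groups and replicate numbers came from the sample labels. Reads had been aligned by the authors to mm9 (TopHat2) and read pairs counted by strand per RefSeq gene (HTSeq), and the raw counts were deposited without normalization. The submitters' processing notes also name CASAVA 1.8.2 and SAMtools, and other versions are not given in the sources used here. Rows that name no gene were left out: pairs on no gene made up 20.0% to 29.9% and pairs aligned to several places 34.3% to 39.1% of each library's rows.

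The counts were tested in R 4.3.3 with edgeR 4.0.16 (quasi-likelihood, TMM, filterByExpr with a minimum count of 10, no covariate, Benjamini-Hochberg adjustment over 13944 genes). The DESeq named in the study's methods was not run. The SE was taken as the absolute log2 fold change over the square root of F. Floors cover counting error only. No 2 libraries were duplicates (smallest chi-square per gene 8.98 over 14461 genes). Exon lengths and coordinates came from GENCODE on NCBIM37 (mm9), which gave a length for 98.8% of the genes tested. Members and lists were chosen with earlier results of these data known. Named genes were every member with an adjusted p below 0.05 or groups that do not overlap, in each role the member with the highest level per kilobase and the 2 with the smallest p, and in the other lists every gene with an adjusted p below 0.05. Alternatives were other scalings and filters, DESeq2 1.42.0, limma-voom (limma 3.58.1), a robust fit, a replicate block, each mouse left out and other thresholds. Leaving out aged mouse 1 and young mouse 1 together was chosen after seeing the data. Before use, the edgeR test was checked on simulated counts with known changes.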

Additional observations from a re-analysis of the deposited data

Results flagged for a closer look

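The spread within groups of 4 mice was screened with Dixon's ratio, the gap between an extreme mouse and its neighbour divided by the range of the group. The screen covered the members and other pathway and target genes named by rule or after their values were seen, without Sp5, Cd44 and Lgr5. Of 50 groups 5 exceeded the 95% critical value for 4 samples. Chance gives about 1 in 20 groups, but that rate does not hold for this screen. Many of its genes were named for their p, their separated groups or after their values were seen, and Wnt7b and Wnt9b because aged mouse 1 stood out. In the aged group, mouse 1 was set apart at the high end for Wnt4 (ratio 0.973), Wnt7b (0.976) and Wnt9b (0.891). In the young group, mouse 4 was set apart at the high end for Dkk3 (0.852), at 23.4 CPM where the other 3 stood at 21.6 to 21.9 CPM, and mouse 2 for Rspo1 (0.934), at 1.16 CPM where the other 3 stood at 0.740 to 0.768 CPM. The ratio of Dkk3 reflects how close the other 3 young mice were to each other.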

How the results depend on the processing

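The count of members called, 0 with all mice, became 1 with library size only, DESeq2 or limma-voom, and 2 at an adjusted p below 0.1, which were Sfrp5 and Rspo1. With 1 mouse left out at a time it ranged from 0 to 1, the other pathway genes called ranged from 0 to 5, the target genes from 0 to 2, and all genes called from 8 to 733 around 287. Without aged mouse 1 and young mouse 1 together these counts were 0 members, 0 other pathway genes, 0 target genes and 51 genes. All genes called numbered 488 with library size only, 873 with DESeq2, 483 with limma-voom and 770 at an adjusted p below 0.1. Under library size only, the median over all genes went from 0.03 to 0.14 on the log2 scale. The replicate block gave 2 other pathway genes (Gpc3 and Frzb) and 130 genes in all. The labels share the numbers 1 to 4 across groups and do not call them pairs. Same-numbered mice deviated together with correlations of 0.21, 0.04, 0.20 and -0.03. Aged mice 1 to 3 correlated best with the young mouse of their number, and aged mouse 4 with young mouse 2 (0.06). Young mice 2 and 4 correlated best with aged mouse 3 (0.17) and aged mouse 1 (0.10). The main fit did not take the numbers as pairs, and these correlations cannot decide whether they are.

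Among the genes followed one by one over the alternatives, the fold changes that turned were those of Wnt4, Wnt5b, Wnt7b, Wnt9a, Wnt9b and Znrf3. The remaining members were not followed in this way. Without aged mouse 1 the log2 fold changes were -0.32 for Wnt4, 0.02 for Wnt5b, -1.20 for Wnt7b, -0.11 for Wnt9a, -1.16 for Wnt9b and -0.03 for Znrf3. Without young mouse 1 as well they were -0.16 for Wnt4, 0.01 for Wnt5b, -0.68 for Wnt7b, -0.08 for Wnt9a, -1.02 for Wnt9b and -0.050 for Znrf3. With 1 mouse left out at a time they ranged up to 2.95 for Wnt4, 2.26 for Wnt7b, 0.86 for Wnt9a, 1.04 for Wnt9b and 0.10 for Znrf3, and from -0.41 to 0.024 for Wnt5b. With limma-voom quality weights Wnt7b stood at -0.63 and Wnt9b at -1.09, and with the replicate block Wnt9b stood at -0.21. The cause was not tested. Depth limits the ligands and R-spondins, whose counts per library were low.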
